A study of Mus musculus with 4 samples.

Results

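Interferon-stimulated genes are the genes that cells switch on when interferon binds its receptor, and their products detect viral nucleic acid, cut or trap viral RNA, and block entry and replication. The genes described here are 48 such genes of the mouse, chosen by name from general knowledge of the interferon response. Of these, 47 matched an identifier among the 39179 genes of the count files, and all 47 passed the filter on low counts that left 11702 genes for testing. Gbp6 matched none and was not analysed here.

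Type I interferons act through the receptor chains IFNAR1 and IFNAR2 and the kinases JAK1 and TYK2. The kinases activate transcription factors, among them STAT2, which binds with IRF9 to a DNA element called ISRE. Interferon gamma, a product of Th1 and NK cells, acts through IFNGR1 and IFNGR2 and on genes with a shorter element called GAS. Many of the guanylate-binding proteins and immunity-related GTPases respond strongly to interferon gamma, while the OAS and IFIT families are typical of the type I response.

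The libraries came from CD4 T cells of OT-II mice, whose transgenic T cell receptor recognises a peptide of ovalbumin, after transfer into C57BL/6 hosts and subcutaneous immunisation with ovalbumin carrying the hapten nitrophenol. On day 8 the transferred Thy-1.1+ CD44hi cells of pooled inguinal nodes were sorted by 2 surface proteins. CXCR5+ PD-1+ cells are T follicular helper (Tfh) cells, the subset that supports B cells of the germinal centre. The CXCR5- PD-1- cells of the same response are called non-Tfh. Each group had 2 libraries, numbered T32 and T53. Both groups thus share the transgenic receptor, the transfer, the immunogen and the day. They are 1 T cell specificity, from pooled nodes. Ages, sex and adjuvant are not given in the sources used here. The labels do not say what T32 and T53 mark, nor that libraries came from separate animals, so the spread behind each p-value is that between these libraries, which may be technical.

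Total counts were 12354113 and 5725358 for Tfh T32 and T53, and 13360563 and 8636056 for non-Tfh T32 and T53. A single count was worth 0.0746 to 0.175 CPM (library-scaled counts, adjusted for composition by the TMM method), which limits the precision of the lowest genes. The genes used for the sort matched the labels, with 748 and 713 CPM of Cxcr5 in the Tfh libraries against 52.7 and 56.1 in the non-Tfh libraries. The 7 T cell marker genes summed to between 7730 and 9439 CPM in every library. In bulk RNA, fewer cells with a gene on and less RNA of it per cell cannot be told apart.

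Between the sorted populations, 5 of the 47 interferon-stimulated genes were lower in Tfh cells and 0 were higher (edgeR quasi-likelihood test, Benjamini-Hochberg adjusted over all genes tested, at 0.05). The 5 were Ifitm2, Ifitm3, Samhd1, Gbp7 and Gbp8, and they make up 10.6% of the genes. Over all genes tested 4.02% were called lower and 4.47% higher. At an unadjusted p under 0.05 the test gave 14 lower and 0 higher. The 14 are 29.8% of the list, against 10.5% of all genes lower at that p. DESeq2 called 10 lower and 0 higher, adding Ifitm1, Ifit2, Gbp2, Gbp4 and Irgm2, and limma-voom called 5 lower and 0 higher. The median log2 fold change, Tfh over non-Tfh, was -0.52, or 1.43-fold lower, against -0.0053 over all genes.

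The log2 fold change lay below 0 for 42 of the 47 genes, against 5929 of all 11702 genes tested. In 22 of the 47 both Tfh libraries lay below both non-Tfh libraries, an arrangement that 25.6% of all genes showed, and in 1, Tap2, both lay above, as in 26.6% of all genes. The number called moved with single libraries. With 1 library left out, its group has a lone library, the spread comes from the other group, and the lone library is assumed to vary like it, here and wherever a library is left out. Without Tfh T32 the number was 19, with 2.49% of all genes called lower and a median log2 fold change of -1.07 for the 47. Without Tfh T53 it was 4, with 1.84% of all genes called lower and a median of -0.16.

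The IFITM proteins sit in plasma and endosomal membranes and block the entry of enveloped viruses. Ifitm1, Ifitm2 and Ifitm3 are neighbours on chromosome 7 (GRCm38), at chr7:140967221-140969825, chr7:140954837-140955987 and chr7:141009586-141010770. In this sort their RNA was low in Tfh cells, with 2 or 3 counts each in Tfh T53 and 6 to 28 in Tfh T32. Ifitm2 measured 0.50 CPM in Tfh T32 and 0.35 CPM in Tfh T53, from 6 and 2 counts, against 8.28 and 18.9 CPM in non-Tfh T32 and T53, from 111 and 168 counts. The groups did not overlap, and Ifitm2 fell 29.2-fold in Tfh cells (log2 fold change -4.87 ± 0.597 SE, adjusted p = 0.00785, edgeR).

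Ifitm3 measured 2.35 CPM in Tfh T32 and 0.35 CPM in Tfh T53, from 28 and 2 counts, against 12.8 and 17.4 CPM in non-Tfh T32 and T53. It fell 9.48-fold (log2 fold change -3.24 ± 0.564 SE, adjusted p = 0.0247, edgeR). The 2 Tfh libraries differed 6.72-fold in Ifitm3, with an exact 95% interval of 1.69 to 58.2 that covers counting error only. Without non-Tfh T32 its adjusted p was 0.0666 and without non-Tfh T53 it was 0.0941 (edgeR).

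Ifitm1 had 7 and 3 counts in Tfh T32 and T53, or 0.59 and 0.52 CPM, against 5.29 and 23.9 CPM in non-Tfh T32 and T53. The groups did not overlap, yet the non-Tfh libraries stood 4.51-fold apart (exact 95% interval 3.43 to 5.98). Its log2 fold change of -4.64 ± 0.998 SE had an adjusted p of 0.0605 (edgeR), so Ifitm1 did not pass. With either non-Tfh library left out its adjusted p was 0.000192 (without T32) and 0.0118 (without T53, edgeR), but the spread in those fits comes from the Tfh libraries alone, with their 7 and 3 counts.

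Within the T32 libraries alone the ratio of non-Tfh to Tfh was 9.02 for Ifitm1 (exact 95% interval 4.16 to 23.2), 16.4 for Ifitm2 (7.32 to 45.8) and 5.43 for Ifitm3 (3.63 to 8.41). Within the T53 libraries it was 45.5 (15.4 to 222), 54.1 (14.7 to 450) and 49.9 (13.6 to 415). All 3 were thus higher in non-Tfh cells within each number, and the Tfh side of the T53 ratios rests on 2 or 3 counts. Ifitm2 shares 40.9% of its exon length with the annotated gene Gm45717 on the same strand, which has no identifier in the count files. The IFITM genes resemble each other, so the authors' counting could have split or lost reads among them. Bst2, or tetherin, which holds budding virus on the cell surface, measured 27.9 and 11.9 CPM in Tfh T32 and T53 and 41.9 and 24.3 CPM in non-Tfh T32 and T53. Its groups overlapped, and its log2 fold change of -0.70 ± 0.460 SE had an adjusted p of 0.476 (edgeR), although Tfh was the lower within each number.

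**Figure D1:**
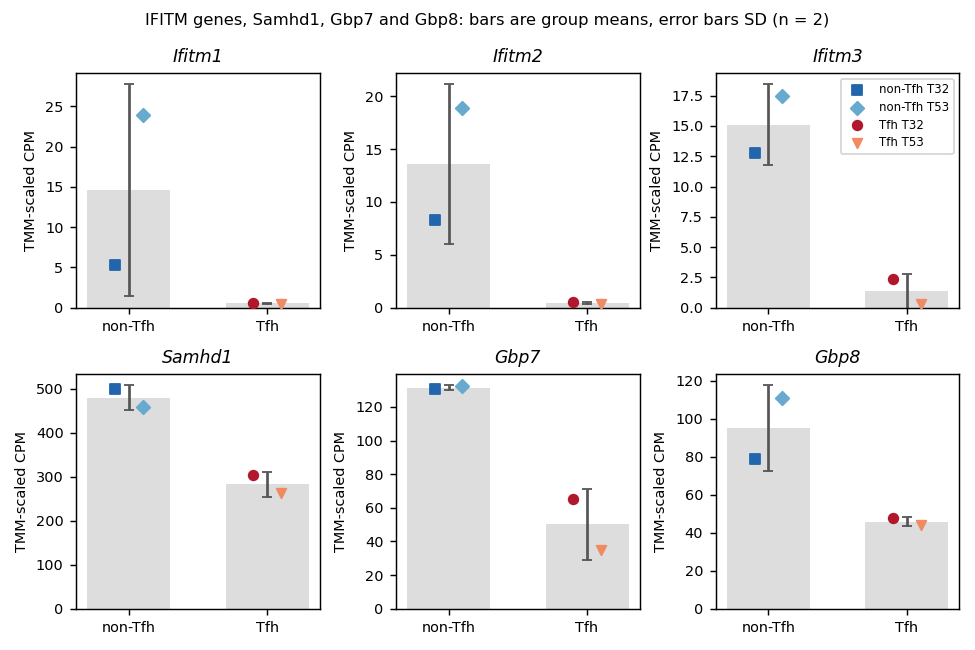
TMM-scaled CPM (linear axes from 0) of the 5 genes called lower in Tfh cells and of Ifitm1, with each library as a point, the bar at the group mean and the error bar the SD of 2 libraries. The IFITM genes sit near 0 in both Tfh libraries, while Samhd1, Gbp7 and Gbp8 stay well expressed there at a lower level.

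Samhd1 (chr2:157097533-157135265) encodes the enzyme that breaks down the deoxynucleotides viruses need to copy DNA. It measured 303 CPM in Tfh T32 and 262 CPM in Tfh T53, against 499 and 459 CPM in non-Tfh T32 and T53. Samhd1 thus stayed well expressed in both populations, and both libraries of each group lay close together. It fell 1.69-fold in Tfh cells (283 ± 28.9 against 479 ± 28.3 CPM, SD, n = 2 each; log2 fold change -0.76 ± 0.135 SE, adjusted p = 0.0218, edgeR). Without Tfh T32 the adjusted p was 0.0521 and without Tfh T53 it was 0.135 (edgeR).

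The guanylate-binding proteins are large GTPases that coat the vacuoles of intracellular pathogens. Of the 6 with an identifier, 2 were called lower, 5 had an unadjusted p under 0.05 with a lower level in Tfh cells (4.02% and 10.5% of all genes), and the median log2 fold change was -0.85. Gbp7 (chr3:142530342-142550149) measured 65.2 and 35.2 CPM in Tfh T32 and T53 against 130.6 and 132 CPM in non-Tfh T32 and T53. The non-Tfh libraries were nearly equal and the Tfh libraries were not. Gbp7 fell 2.58-fold (log2 fold change -1.37 ± 0.283 SE, adjusted p = 0.0478, edgeR), and its adjusted p was 0.246 without non-Tfh T32 and 0.265 without non-Tfh T53.

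Gbp8 (chr5:105014150-105139540) measured 47.6 and 44.1 CPM in Tfh T32 and T53 against 79.0 and 111 CPM in non-Tfh T32 and T53. Here the Tfh libraries were nearly equal and the spread was on the non-Tfh side. Gbp8 fell 2.06-fold (log2 fold change -1.05 ± 0.183 SE, adjusted p = 0.0212, edgeR), with an adjusted p of 0.0668 without Tfh T32 and 0.0963 without Tfh T53. Gbp2 measured 56.5 and 29.9 against 91.9 and 104 CPM in the same order (log2 fold change -1.15, adjusted p = 0.0858, edgeR). Gbp4 measured 169 and 126 against 223 and 245 CPM (log2 fold change -0.66, adjusted p = 0.062, edgeR).

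Gbp3 measured 15.9 CPM in both Tfh libraries against 24.4 and 21.2 CPM in non-Tfh T32 and T53. Gbp9 stood apart from these 5, at 279 and 191 CPM in Tfh T32 and T53 and 236 and 233 CPM in non-Tfh T32 and T53. Its non-Tfh values lay between the 2 Tfh values, with a log2 fold change of 0.0063 ± 0.188 SE (adjusted p = 0.99, edgeR), a sign that flips to -0.00044 under RLE scaling. Gbp4, Gbp8 and Gbp9 overlap each other by 60 or 61 exon bases, and the family members are alike in sequence, so reads could be assigned among them with error.

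The 2 Tfh libraries differed from each other across these genes. In 46 of the 47 genes the lowest of the 4 libraries was Tfh T53, against 28.2% of all genes tested. The exception was Tap2, lowest in non-Tfh T32. The highest library was non-Tfh T32 for 29 genes, non-Tfh T53 for 10, Tfh T32 for 8 and Tfh T53 for 0. Summed over the 47 genes the level was 5015 and 3023 CPM in Tfh T32 and T53, and 5931 and 5112 CPM in non-Tfh T32 and T53.

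**Figure D2:**
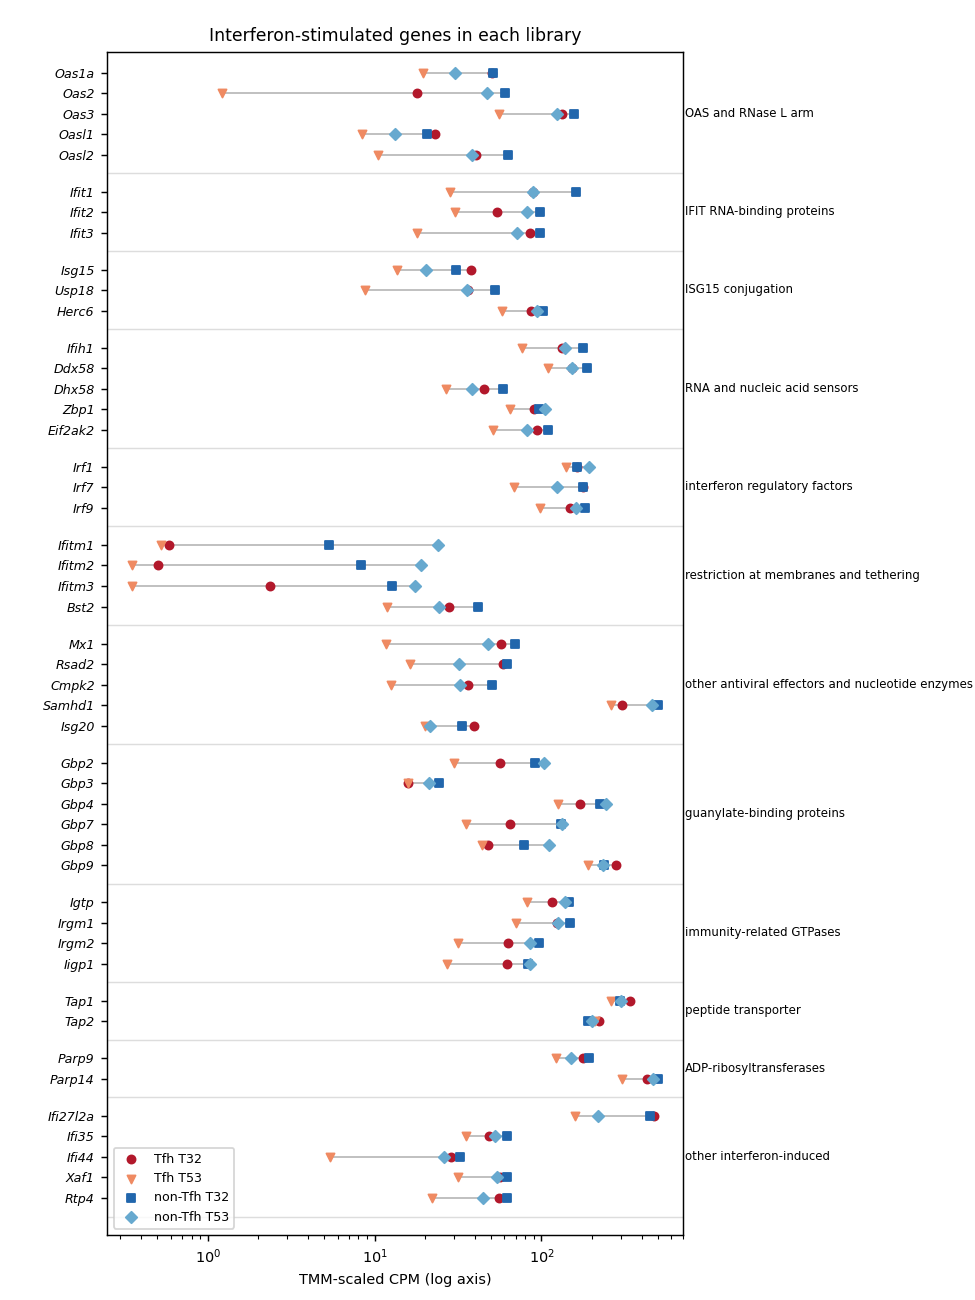
TMM-scaled CPM (log axis) of the 47 interferon-stimulated genes in each of the 4 libraries, grouped by role, with a line joining the lowest and highest library. Tfh T53 is the lowest point in every row but Tap2. The rows of the OAS genes, Ifit3, Usp18, Ifitm3, Mx1 and Ifi44 show wide gaps between Tfh T32 and Tfh T53.

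All 47 genes were lower in Tfh T53 than in Tfh T32, by 1.83-fold at the median (log2 ratio -0.87, of TMM-scaled CPM with a prior count of 2), while the median over all genes was -0.0027. The size ran from 12.7-fold for Oas2 to a log2 ratio of -0.0022 for Gbp3. More than 2-fold separated the libraries for 19 of the 47, each lower in T53, against 2.28% of all genes lower and 2.29% higher. With 1 library on each side there is no test. Tfh T53 was also the shallowest library, and the part of depth or of any other difference between the libraries in this was not tested.

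In the non-Tfh cells the same ratio of T53 to T32 was below 0 for 35 of the 47, with a median of -0.25. Only Ifi27l2a was more than 2-fold lower (2.06-fold), against 2.72% of all genes, and Ifitm1 and Ifitm2 were more than 2-fold higher, against 1.76%. Since all 47 were below 0 in Tfh cells, the 35 below 0 in non-Tfh cells were below 0 in both groups. Over all genes, 5886 of 11702 were below 0 in non-Tfh cells. Of the 5890 genes below 0 in Tfh cells, 3732 were below 0 in non-Tfh cells too. Across the 47 genes the 2 ratios correlated at Pearson r = 0.468 and Spearman rho = 0.660, and across all 11702 genes at r = 0.368 and rho = 0.335. These correlations are over genes of the same 4 libraries, which are not independent replicates.

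**Figure D3:**
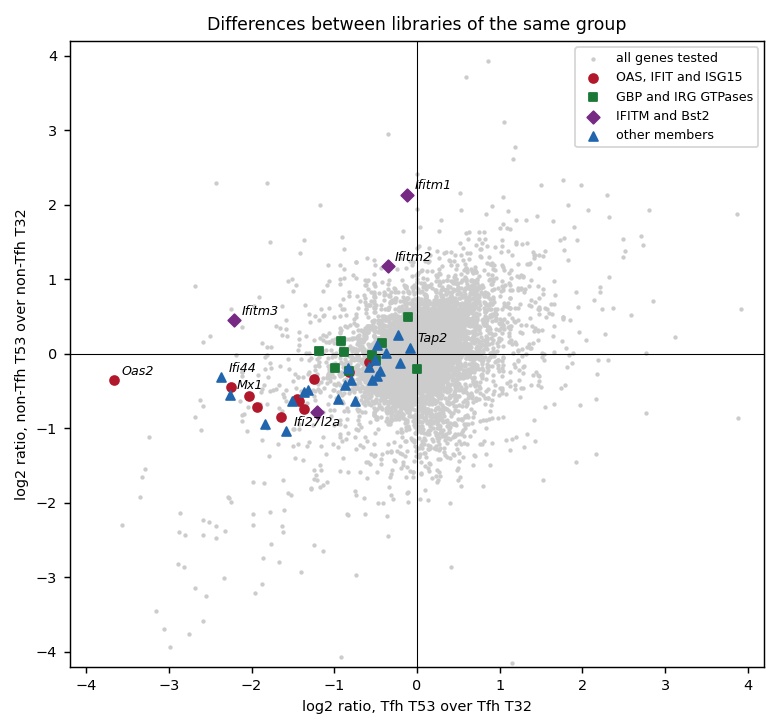
Log2 ratio of T53 to T32 in Tfh cells (horizontal axis) and in non-Tfh cells (vertical axis) for the 47 interferon-stimulated genes, coloured by family, over all genes tested in grey, with 3 genes outside the axes. Every interferon-stimulated gene lies left of 0, most lie below 0 as well, and the OAS, IFIT and ISG15 genes reach farther left than the GBP and IRG GTPases.

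The oligoadenylate synthetases (OAS) sense double-stranded RNA and make the messenger that turns on RNase L. All 5 were over 2-fold lower in Tfh T53 than in Tfh T32, with a median log2 ratio of -1.43, against -0.64 in the non-Tfh libraries. Oas2 measured 17.9 CPM in Tfh T32 and 1.22 in Tfh T53, from 213 and 7 counts, and 60.7 and 47.4 CPM in non-Tfh T32 and T53. Both Tfh libraries lay below the non-Tfh libraries, 3.40-fold within T32 (exact 95% interval 2.92 to 3.97) and 38.7-fold within T53 (18.6 to 96.9), but the spread between Tfh libraries left the log2 fold change of -2.35 ± 0.853 SE at an adjusted p of 0.208 (edgeR). Oas3 measured 133 and 55.8 CPM in Tfh T32 and T53 and 156 and 124 CPM in non-Tfh T32 and T53. Oas1a measured 50.8 and 19.6 CPM in the Tfh libraries and 51.2 and 30.5 CPM in the non-Tfh libraries, T32 before T53. Its T32 libraries were nearly equal across groups. The synthetase-like genes Oasl1 and Oasl2 had the same order within each group, at 23.0 and 8.39 CPM in Tfh T32 and T53 for Oasl1 and 40.6 and 10.5 CPM for Oasl2.

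The IFIT proteins bind viral RNA that lacks the cap structure of the host. Ifit1 measured 88.8 and 28.3 CPM in Tfh T32 and T53 and 161 and 89.5 CPM in non-Tfh T32 and T53. Its higher Tfh library thus matched its lower non-Tfh library, and the log2 fold change of -1.07 had an adjusted p of 0.392 (edgeR). Ifit2 measured 54.1 and 30.4 against 97.5 and 81.9 CPM, with no overlap, and a log2 fold change of the same size, -1.07 ± 0.274 SE, at an adjusted p of 0.0808 (edgeR). Ifit3 measured 85.5 and 17.8 CPM in Tfh T32 and T53 and 98.3 and 71.7 CPM in the non-Tfh libraries.

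ISG15 is a ubiquitin-like protein that is joined to other proteins, Herc6 encodes its ligase in the mouse, and Usp18 encodes the protease that removes it and also dampens the type I receptor. Isg15 measured 37.6 and 13.6 CPM in Tfh T32 and T53 and 30.9 and 20.3 CPM in non-Tfh T32 and T53. The 2 Tfh libraries enclosed both non-Tfh libraries, and the fitted log2 fold change of 0.036 (adjusted p = 0.981, edgeR) averages over that spread. Usp18 measured 36.4 and 8.74 CPM in the Tfh libraries and 52.8 and 35.7 CPM in the non-Tfh libraries. Herc6 differed less between libraries, at 86.7 and 57.7 CPM in Tfh T32 and T53 and 103 and 94.7 CPM in non-Tfh T32 and T53.

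Among the other antiviral effectors, Mx1, a dynamin-like GTPase, measured 57.0 and 11.7 CPM in Tfh T32 and T53 and 69.9 and 47.6 CPM in non-Tfh T32 and T53. Rsad2, or viperin, which makes a chain-terminating nucleotide, measured 58.7 and 16.3 CPM in the Tfh libraries and 61.7 and 31.96 CPM in the non-Tfh libraries. Its T32 libraries were close across groups and its T53 libraries were not, and its fitted log2 fold change of -0.29 turned to 0.33 without Tfh T53 and to 0.28 without non-Tfh T32. Cmpk2, the neighbour of Rsad2 and a nucleotide kinase, measured 36.4 and 12.6 CPM in Tfh T32 and T53 and 50.2 and 32.3 CPM in non-Tfh T32 and T53. Isg20, an RNA exonuclease, measured 39.3 and 20.1 against 33.2 and 21.6 CPM, T32 before T53 in each group.

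Ifi27l2a, which encodes a small interferon-induced membrane protein, measured 475 and 159 CPM in Tfh T32 and T53 and 449 and 217 CPM in non-Tfh T32 and T53. The group means differed by less than the spread within a group (317 ± 224 against 333 ± 164 CPM, SD, n = 2), while T32 exceeded T53 in both. Ifi44 measured 28.8 and 5.42 CPM in Tfh T32 and T53 and 32.3 and 25.9 CPM in the non-Tfh libraries. Its Tfh T53 library stood apart from the other 3. Rtp4 measured 55.8 and 22.2 against 62.2 and 44.5 CPM in the same order. Xaf1 measured 56.8 and 31.7 against 62.0 and 54.4 CPM. Ifi35 measured 48.3 and 35.5 against 62.2 and 52.8 CPM. Among these 5, Tfh T53 was over 2-fold below Tfh T32 for Ifi27l2a, Ifi44 and Rtp4.

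The sensors of viral nucleic acid spread less. Ddx58, which encodes RIG-I, measured 152 and 109 CPM in Tfh T32 and T53 and 187 and 152 CPM in non-Tfh T32 and T53. Ifih1, which encodes MDA5, measured 133 and 76.1 against 176 and 138 CPM in the same order. None of the 5 sensors differed over 2-fold between Tfh libraries, and their median log2 ratio of T53 to T32 was -0.75 in Tfh and -0.36 in non-Tfh cells. Eif2ak2, the kinase PKR that stops translation, measured 93.4 and 50.9 against 109.6 and 82.0 CPM, and Dhx58, a regulator of the other helicases, 45.1 and 26.8 against 59.2 and 38.2 CPM. Zbp1, a sensor of left-handed nucleic acid that can trigger cell death, measured 90.1 and 64.4 against 96.9 and 105 CPM.

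The interferon regulatory factors did not behave alike between libraries. Irf7, the factor that amplifies type I interferon production, measured 178 and 68.6 CPM in Tfh T32 and T53 and 177 and 124 CPM in non-Tfh T32 and T53. Irf9, the DNA-binding partner of STAT2, measured 148 and 98.3 against 182 and 161 CPM. Irf1, which interferon gamma and T cell receptor signals induce, measured 164 and 139 against 162 and 193 CPM. Irf7 was nearly equal in the T32 libraries and Irf1 was too, but between T32 and T53 of non-Tfh cells Irf7 was lower in T53 and Irf1 higher.

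Immunity-related GTPases act with the guanylate-binding proteins at pathogen vacuoles. Igtp measured 115 and 81.7 CPM in Tfh T32 and T53 and 146 and 138 CPM in non-Tfh T32 and T53, and Irgm2 measured 63.0 and 31.7 against 96.9 and 85.0 CPM. Irgm1 measured 124 and 70.3 against 148 and 126 CPM, and Iigp1 62.3 and 27.3 against 82.9 and 85.1 CPM. In all 4 genes both Tfh libraries lay below both non-Tfh libraries, as in 25.6% of all genes. In these 4 genes and the 6 guanylate-binding proteins the median log2 ratios of T53 to T32 were -0.14 and 0.078 in non-Tfh cells, where Gbp8 was higher in T53, against -0.90 and -0.48 in Tfh cells. Igtp and Irgm2 share 162 exon bases.

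The peptide transporter of antigen presentation differed little between libraries, with a median log2 ratio of T53 to T32 of -0.23 in Tfh and 0.05 in non-Tfh cells. Tap1 measured 337 and 259 CPM in Tfh T32 and T53 and 296 and 299 CPM in non-Tfh T32 and T53. Tap2 measured 222 and 209.9 against 191 and 202 CPM, and it was the gene whose Tfh libraries both lay above the non-Tfh libraries. The difference in Tap2 was small, with a log2 fold change of 0.14 ± 0.113 SE. Tap1, at a log2 fold change of 0.0040 ± 0.155 SE, changes sign with scaling, to -0.0026 under RLE. The mono-ADP-ribosyltransferase Parp14 measured 431 and 304 against 499 and 468 CPM, and its partner in the family, Parp9, 179 and 122 against 191 and 149.9 CPM, T32 before T53.

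Compared within a number, the genes stood closer in the T32 libraries than in the T53 libraries. Within T32 the median log2 ratio of Tfh to non-Tfh was -0.29, with 38 of 47 below 0, against 5961 of all 11702 genes. In T32 5 genes were over 2-fold lower in Tfh cells, against 4.65% of all genes, and 0 over 2-fold higher, against 4.64%. Within T53 the median was -0.85, or 1.81-fold lower, with 46 of 47 below 0, against 5862 of all 11702 genes. In T53 19 genes were over 2-fold lower, against 6.07% of all genes, and 0 over 2-fold higher, against 6.87%.

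The ratio of Tfh to non-Tfh was lower in T53 than in T32 for 46 of the 47 genes, Gbp3 being the exception, and for 5973 of all 11702 genes. In 8 genes the sign turned. Oasl1, Isg15, Irf1, Irf7, Isg20, Gbp9, Tap1 and Ifi27l2a were higher in Tfh cells within T32 and lower within T53. For Isg15 the log2 ratio was 0.28 within T32 and -0.56 within T53. Another 38 genes were lower in Tfh cells within both numbers, with the IFITM genes and Oas2 farthest from 0 in both. These are ratios of 1 library to 1 library, with no test.

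**Figure D4:**
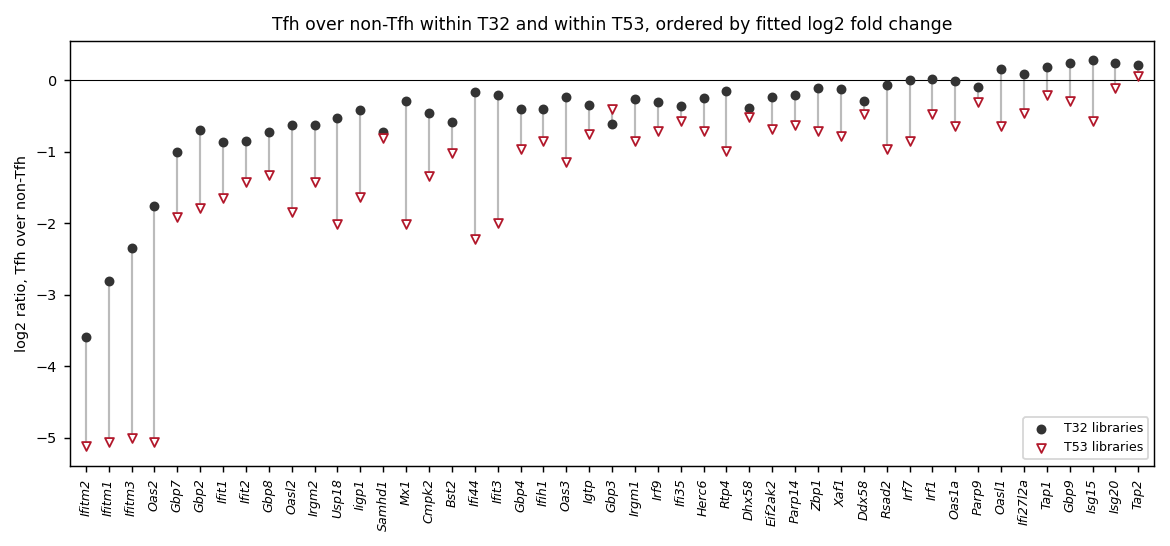
Log2 ratio of Tfh to non-Tfh within the T32 libraries (filled circles) and within the T53 libraries (open triangles) for each of the 47 genes, ordered by the fitted log2 fold change. The triangle lies below the circle for every gene but Gbp3. The gap is large for Oas2, Ifitm3, Ifitm1, Ifi44, Ifit3 and Mx1 and small for Samhd1, Ddx58 and Tap2.

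Levels of different genes can be compared only per length, here as mean CPM per kilobase of annotated exon over the 4 libraries. By this level Ifi27l2a, with 463 exon bases, stood far above the rest at 702. It was followed by Igtp at 59.4, Tap2 at 54.5, Tap1 at 54.4, Parp14 at 45.7 and Gbp9 at 45.4. The lowest levels per kilobase were those of Ifi44 at 3.77, Gbp3 at 5.93, Oasl2 at 5.97, Oasl1 at 6.25 and Ifitm1 at 6.92.

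The promoters of several of these genes carry the DNA letters that the complex of IRF9 and STAT2 is known to bind. In the RefSeq promoter table (GRCm38.p6, 250 bases before to 50 after each start) 33 of the 48 genes had an entry. The ISRE core GAAANNGAAA, searched on both strands (TTTCNNTTTC on the other), was in 18 of the 33, or 54.5%, and in 3.99% of the 27025 genes of the table. The GAS core TTCNNNGAA, the same on both strands, was in 12 of the 33, or 36.4%, and in 9.55% of all. A match is a description of the letters and not a measured binding site. The GAS core can overlap an ISRE core.

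The 160 bases before the start are shown 5′ to 3′ on the strand of the gene for 7 genes, to show how the matches lie in genes of different roles, from runs and pairs of matches (Isg15, Oas1a, Ifit1 and Ifit3) to single ones (Gbp2, Gbp7 and Ifitm2). They were chosen with their values known. Capitals mark the letters of each ISRE core match, runs of overlapping matches included. The stretches are Isg15 at chr4:156200819-156200978 on the minus strand, Ifit1 at chr19:34640729-34640888 on the plus strand, Ifit3 at chr19:34583369-34583528 on the plus strand, Oas1a at chr5:120907526-120907685 on the minus strand, Gbp2 at chr3:142620503-142620662 on the plus strand, Gbp7 at chr3:142530176-142530335 on the plus strand and Ifitm2 at chr7:140955962-140956121 on the minus strand.
Isg15: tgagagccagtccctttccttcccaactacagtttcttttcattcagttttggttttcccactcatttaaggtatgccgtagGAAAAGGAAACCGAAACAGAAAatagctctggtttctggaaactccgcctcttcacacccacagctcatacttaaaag
Ifit1: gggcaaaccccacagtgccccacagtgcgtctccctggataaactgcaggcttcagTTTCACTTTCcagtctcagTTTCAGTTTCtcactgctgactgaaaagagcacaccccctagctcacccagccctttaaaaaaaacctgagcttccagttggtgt
Ifit3: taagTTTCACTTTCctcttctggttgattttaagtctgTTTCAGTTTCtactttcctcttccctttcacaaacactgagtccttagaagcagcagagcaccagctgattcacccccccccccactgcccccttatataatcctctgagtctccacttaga
Oas1a: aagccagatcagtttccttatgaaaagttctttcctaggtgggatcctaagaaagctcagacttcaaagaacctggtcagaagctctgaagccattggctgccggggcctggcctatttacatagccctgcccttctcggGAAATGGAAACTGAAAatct
Gbp2: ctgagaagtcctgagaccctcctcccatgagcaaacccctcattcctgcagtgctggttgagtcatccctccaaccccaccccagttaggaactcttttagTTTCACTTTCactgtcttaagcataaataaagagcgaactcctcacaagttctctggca
Gbp7: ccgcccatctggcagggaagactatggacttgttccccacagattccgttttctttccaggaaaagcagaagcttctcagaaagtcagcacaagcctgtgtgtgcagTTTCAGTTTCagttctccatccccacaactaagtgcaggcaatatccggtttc
Ifitm2: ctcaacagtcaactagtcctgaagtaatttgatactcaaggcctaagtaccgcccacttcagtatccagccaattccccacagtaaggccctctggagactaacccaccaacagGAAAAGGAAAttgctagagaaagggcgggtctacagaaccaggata
Isg15 holds 3 overlapping matches in one run, Oas1a 2 overlapping matches next to its start, and Ifit1 and Ifit3 hold 2 separate matches each. Gbp2, Gbp7 and Ifitm2 hold 1 match each. Of the genes with 2 or more matches in the window, Bst2, Ifit1, Ifit3, Ifitm3, Isg15 and Oas1a were over 2-fold apart between Tfh libraries. Gbp3 and Irgm1, with 2 matches each, were not. Of those with 1 match, Oas3 and Rsad2 were over 2-fold apart, while Ddx58, Eif2ak2, Gbp2, Gbp7, Ifih1, Ifitm2, Igtp and Irgm2 were not. Of the genes with an entry but no match, Oasl1, Oasl2, Irf7, Cmpk2 and Ifi44 were over 2-fold apart. Herc6, Ifi35, Ifit2, Ifitm1, Irf1, Irf9, Isg20, Samhd1, Tap1 and Xaf1, also without a match, were not. Over all genes tested 2.28% were over 2-fold lower in Tfh T53 than in Tfh T32 and 2.29% higher. A link between the matches and this gap was not tested.

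The genes upstream of the response were read from lists of the pathway. Of 17 interferon genes with an identifier none passed the filter on low counts. Ifng had 0 and 3 counts in Tfh T32 and T53 and 3 and 101 counts in non-Tfh T32 and T53, so 1 library, non-Tfh T53, held nearly all of them at 11.4 CPM. Ifnz had 1, 1, 1 and 0 counts, and the other 15 had 0 counts in every library. At these depths 0 counts allow up to 3 counts per library, and RNA made by cells outside the sort would not be seen.

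Of 5 tested receptor chains 2 were called lower in Tfh cells, both of the interferon gamma receptor, against 4.02% of all genes. Ifngr2 measured 8.81 and 8.22 CPM in Tfh T32 and T53 against 19.0 and 22.4 CPM in non-Tfh T32 and T53 (log2 fold change -1.27 ± 0.187 SE, adjusted p = 0.0124, edgeR). Ifngr1 measured 61.1 and 58.2 against 83.2 and 96.9 CPM (log2 fold change -0.59 ± 0.127 SE, adjusted p = 0.0406, edgeR). Neither receptor gene had overlapping groups, and Tfh T53 lay close to Tfh T32 for both. The call of Ifngr1 was lost in limma-voom (adjusted p = 0.052) and in edgeR with either Tfh library left out (0.14 without T32, 0.224 without T53) or with non-Tfh T53 left out (0.101), and that of Ifngr2 without Tfh T53 (0.0613). For the type I receptor, Ifnar1 had a log2 fold change of -0.36 (adjusted p = 0.162) and Ifnar2 one of 0.39 (adjusted p = 0.116), neither of which passed (edgeR).

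Among 11 genes of receptor signalling 2 rose and 0 fell at the adjusted threshold, against 4.47% and 4.02% of all genes. None was lower at an unadjusted p under 0.05 (edgeR), and DESeq2 and limma-voom called none lower at the adjusted threshold. Jak2, the kinase of the interferon gamma receptor and of other cytokine receptors, rose from 302 ± 11.9 CPM in non-Tfh to 670 ± 11.6 CPM in Tfh cells (SD, n = 2; log2 fold change 1.15 ± 0.124 SE, adjusted p = 0.00443, edgeR). Irf8 also rose (log2 fold change 1.45 ± 0.200 SE, adjusted p = 0.00998, edgeR).

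Of 10 negative regulators 3 rose and 1 fell, against 4.47% and 4.02% of all genes. Socs1, which blocks JAK kinases, rose from 34.5 ± 6.66 to 91.9 ± 14.0 CPM in Tfh cells (SD, n = 2; log2 fold change 1.43 ± 0.182 SE, adjusted p = 0.00801, edgeR). Ptpn11, a phosphatase of several receptor pathways, rose from 237 ± 28.4 to 998 ± 191 CPM, and Ptpn1 rose from 240 ± 15.3 to 384 ± 22 CPM. Cish, a STAT5-induced inhibitor, fell 11.9-fold (log2 fold change -3.57 ± 0.489 SE, adjusted p = 0.0112, edgeR). Of 14 upstream sensors and adaptors 1 rose, Tlr9, from 3 and 2 counts in non-Tfh T32 and T53 to 23 and 22 counts in Tfh T32 and T53. The call of Tlr9 was lost without Tfh T53 (adjusted p = 0.069, edgeR), and that of Ptpn1 with either Tfh library left out (0.0668 without T32, 0.119 without T53) or with non-Tfh T32 left out (0.0746).

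A second list of 57 tested type I interferon-stimulated genes had a median log2 fold change of -0.39, with 51 of 57 below 0, 5 called lower and 1 called higher. Over all genes 5929 of 11702 lay below 0, 4.02% were called lower and 4.47% higher. Ms4a4b measured 279 and 234 CPM in Tfh T32 and T53 against 599 and 565 CPM in non-Tfh T32 and T53. Ifi203, of the PYHIN family of nuclear proteins, measured 227 and 135 against 424 and 402 CPM. Its relative Mndal measured 164 and 118 against 271 and 251 CPM. All 3 fell without overlap between groups, as did Slfn8, at 83.6 and 48.8 against 150.0 and 157 CPM, and Slfn3. With either non-Tfh library left out the adjusted p was 0.168 and 0.151 for Ifi203 and 0.187 and 0.225 for Slfn8, and without non-Tfh T32 it was 0.069 for Mndal (edgeR). Without Tfh T53 it was 0.0556 for Ifi203 and 0.116 for Mndal (edgeR). Ifi27 rose, from 26.7 and 25.6 CPM in the non-Tfh libraries to 47.6 and 52.3 CPM in the Tfh libraries. In this list too the ratio of T53 to T32 was lower within Tfh cells, with a median of -0.50, than within non-Tfh cells, with a median of -0.20, and 12 of the 57 were over 2-fold lower in Tfh T53, against 2.28% of all genes.

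Of 12 tested further interferon gamma-stimulated genes 0 passed with edgeR, against 4.02% of all genes called lower and 4.47% higher, and 0 with limma-voom. At an unadjusted p under 0.05 (edgeR) 4 were lower, or 33.3%, against 10.5% of all genes. DESeq2 called 1 lower, against 4.58% of all genes. The median log2 fold change was -0.47, with Ifi47 at 148 and 88.7 CPM in Tfh T32 and T53 against 171 and 163 CPM in non-Tfh T32 and T53. Of 9 genes of antigen processing 0 passed with edgeR, DESeq2 or limma-voom. At an unadjusted p under 0.05 (edgeR) 1 was higher, against 1341 of all 11702 genes. Their median log2 fold change was -0.03. B2m, the light chain of MHC class I, measured 1011 ± 270 CPM in Tfh and 1033 ± 97.9 CPM in non-Tfh cells (SD, n = 2).

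**Figure D5:**
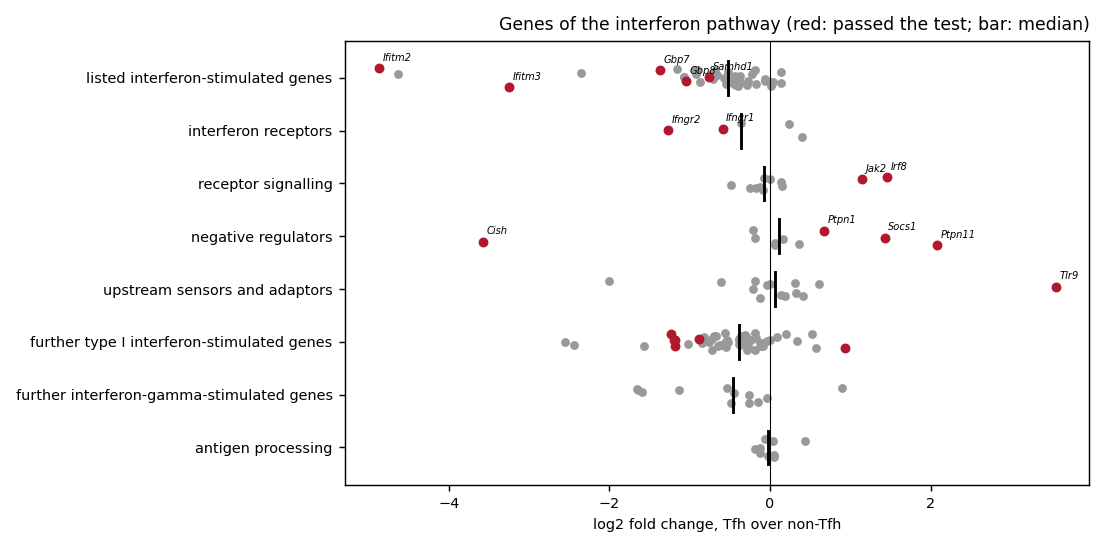
Log2 fold change of Tfh over non-Tfh for the tested genes of each list of the interferon pathway, 1 point a gene, with called genes in red and a bar at the list median. The medians of the 3 lists of interferon-stimulated genes and of the interferon receptors lie below 0. Those of receptor signalling, negative regulators and antigen processing lie near 0. Called genes of receptor signalling and negative regulators lie above 0, such as Jak2, Socs1 and Ptpn11, with Cish far below it.

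Genes that mark other cells were read as a check on the sort, and their part in these results was not tested. The 7 B cell markers summed to 145 and 141 CPM in Tfh T32 and T53 against 11.3 and 18.3 CPM in non-Tfh T32 and T53, nearly all of it Cd22. The 6 markers of plasmacytoid dendritic cells, the main makers of type I interferon, summed to between 68.8 and 106 CPM. The defining marker Siglech had 0 counts in all 4 libraries. Most of these sums came from 2 genes with opposite patterns. Pacsin1 measured 69.9 and 79.0 CPM in Tfh T32 and T53 and 33.9 and 46.1 CPM in non-Tfh T32 and T53. Runx2 measured 8.39 and 13.8 against 26.4 and 41.3 CPM in the same order. The 8 macrophage and monocyte markers summed to 5.37 and 5.77 CPM in the Tfh libraries and 4.62 and 8.55 in the non-Tfh libraries. The 7 dendritic cell markers summed to 2.77 and 3.15 CPM in the Tfh libraries and 6.93 and 7.43 in the non-Tfh libraries, T32 before T53. Single markers differed. In non-Tfh T53 Lyz2 had its most counts, 39, and Cd68 its fewest, 7. Itgax was highest in non-Tfh T53, with 16 counts, and Batf3 in non-Tfh T32, with 50. The 7 NK cell markers summed to 51.3 and 58.8 CPM in the Tfh libraries and to 29.2 and 49.0 CPM in the non-Tfh libraries. These sums mix opposite patterns. Klrb1c, most of the Tfh sums, measured 44.6 and 57.4 CPM in Tfh T32 and T53 and 19.8 and 12.4 CPM in non-Tfh T32 and T53. Klrk1 and Gzma were highest in non-Tfh T53, at 13.2 and 20.9 CPM, Eomes was highest in non-Tfh T32, at 2.01 CPM, and Ncr1 and Klra8 had 0 counts in every library. The 7 granulocyte markers held only 14 and 3 counts in Tfh T32 and T53 and 17 and 12 in non-Tfh T32 and T53. At 0.52 to 1.35 CPM they had their lowest sum in Tfh T53, as the interferon-stimulated genes did, but from 3 counts. The lists of T, B, plasma, plasmacytoid dendritic, dendritic, macrophage, NK and stromal cells had theirs in another library.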

How the data were processed

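RNA was sequenced from 4 samples, 2 of Tfh and 2 of non-Tfh cells, as stranded total RNA in read pairs, per the labels' protocols. The authors deposited raw counts per Ensembl gene, whole numbers that sum to between 5725358 and 13360563 per library. The submitters' processing notes name TopHat2, Bowtie2, HTSeq and GRCm38. The versions, the annotation release and the strand setting are not given in the sources used here, so overlapping genes are uncertain. GENCODE M21 gave symbols to 37607 of 39179 identifiers, and the 1572 others held 0.209 to 0.228% of the counts.

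Counts were tested in R 4.3.3 with edgeR 4.0.16 (filterByExpr, TMM, robust quasi-likelihood fit, two-sided), with the group alone in the model, 2 residual degrees of freedom and Benjamini-Hochberg adjustment over 11702 genes at 0.05. Each SE was derived from the test itself, as the size of the log2 fold change divided by √F. Levels are TMM-scaled CPM. Ratios of 1 library to 1 library are log2 CPM with a prior count of 2 and carry no test. Ratios of counts carry exact binomial intervals of 95%, for counting error only. Promoter motifs and figures were made in Python 3.11.15 with pandas 2.3.3, scipy 1.17.1 and matplotlib 3.10.9.

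Of the 48 genes, the rule named in full those called, the 10 with the highest mean CPM and the 6 with the largest ratio between non-Tfh libraries. The values of the other members stand by role. Of each further list it named up to 4 called genes, or the 2 with the highest mean CPM. Slfn3, Ifi27, Ifnar1, Ifnar2 and the cell markers were named outside it, after their values were seen. Some genes of the lists are not reported here. The members, lists and rule were chosen with earlier results of these data known. The alternatives tried were 2 other scalings (RLE, upper quartile), 2 other tools (DESeq2 1.42.0 and limma-voom of limma 3.58.1), testing without a count filter or with one of 5 CPM in 2 libraries, no robust option, a prior count of 0.5, a block for the library number, and each library left out in turn.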

Additional observations from a re-analysis of the deposited data

How the results depend on the processing

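RLE and upper-quartile scaling, limma-voom and a filter of 5 CPM left the number of the 47 genes called lower in Tfh cells at 5, and a fit with no robust option gave 6. DESeq2 called 10 (4.58% of all genes lower) and a test with no count filter 16 (5.45%). With each library left out in turn the number ran from 4 to 19, the median log2 fold change from -1.07 to -0.16, and the number of all genes called from 472 to 912, against 994 with all libraries. No filter gave 1986 calls among all genes. No setting called any of the 47 higher. The count of genes over 2-fold apart between Tfh libraries was 19 or 20, and between non-Tfh libraries 3, under every scaling, filter and prior count tried.

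The labels do not say that the numbers pair the libraries. With a replicate block for the number, 14 of the 47 were called lower (8.96% of all genes), 2116 of all genes were called in either direction, Ifitm3 had an adjusted p of 0.0536, Gbp7 0.0636 and Ifitm1 0.0033 (edgeR), Bst2 (0.0149), Ddx58, Dhx58, Gbp4, Ifi35, Ifih1, Ifit1, Ifit2, Igtp and Irf9 were called, and the median log2 fold change was -0.53. Over all genes the ratios of T53 to T32 in the 2 groups correlated at r = 0.368.

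Signs near 0 turned. Tap1 had a log2 fold change of -0.0026 under RLE and in DESeq2, -0.016 in limma-voom, -0.00091 with no filter and -0.0061 with the block, and from -0.20 to 0.19 with a library left out (without Tfh T32 and without Tfh T53). Gbp9 had -0.00044 under RLE, -0.0013 in DESeq2, -0.029 in limma-voom and -0.015 with the block, and from -0.29 to 0.26 for the same libraries. Leaving out 1 library at a time gave ranges that crossed 0 for Ifi27l2a (-1.07 to 0.55), Rsad2 (-1.53 to 0.33), Parp9 (-0.48 to 0.074) and B2m (-0.33 to 0.23). The cause was not tested. Values of Ifitm1, Ifitm2 and Ifitm3 without Tfh T32, and of Tlr9 without either non-Tfh library, are not given because 3 or fewer counts remained in a group. Tfh T53, the shallowest library, limits the precision of genes with a few counts there, the IFITM genes and Oas2.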
